A study of Mus musculus with 8 samples.

Results

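Inflammasomes are protein complexes of the cytosol that turn signs of infection or damage into inflammatory cell death. A sensor (NLRP1, NLRP3 or AIM2) recruits the adaptor ASC, which Pycard encodes, and the adaptor gathers caspase-1. The active caspase cuts the cytokines IL-1β and IL-18 to their mature forms and cuts gasdermin D, whose fragment forms pores in the plasma membrane. Mouse NLRP1 sensors are held inactive by the dipeptidyl peptidases DPP8 and DPP9 and act once their N-terminal part is degraded by the proteasome. The pathway is best known from macrophages and dendritic cells, while resting T cells carry several of its components.

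The 10 genes described are the sensors Nlrp1a, Nlrp1b, Nlrp3 and Aim2, the adaptor gene Pycard, the caspase genes Casp1 and Casp4, the pore-forming gene Gsdmd and the cytokine genes Il1b and Il18. They were picked by name out of 24421 gene symbols, and all 10 were found. The choice was made with their values in these libraries known, so their differences between the groups are given as a description and not as a test.

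The libraries came from splenic naive CD4+ T cells, purified with an isolation kit, of C57BL/6 mice that the labels give as male and 6 to 8 weeks old. The study set floxed Pcbp1 mice with a Cd4-driven Cre (Pcbp1 fl/fl Cd4-Cre) against mice labelled Pcbp1+/+Cd4-Cre, which its design text calls wild type. Cd4-Cre deletes floxed genes from the thymic stage at which Cd4 is switched on, so CD8 T cells and other descendants of those thymocytes carry the deletion too. PCBP1 (hnRNP E1) binds RNA, and the comparison asks how naive CD4+ T cells differ without it. Each of the titles E1KO and E1WT covers 4 libraries. The genotype field of every sample states the opposite of its title. Libraries carry their title as a name here, every difference is E1KO over E1WT, and no result could be given without the libraries whose labels disagree.

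Pcbp1 went with the titles, at 38.3 to 41.8 CPM (reads counted per 1000000 gene counts, scaled by TMM) in E1KO and 203 to 243 CPM in E1WT libraries. Xist, an RNA made from the inactive X chromosome of females, lay at 365 to 425 CPM in E1KO and 0.55 to 2.89 CPM in E1WT libraries, although the labels give male mice throughout. The Xist difference and the title cannot be told apart. For every gene below, a difference that goes with Xist therefore cannot be told apart from a difference that goes with Pcbp1. Gene counts ran from 28264655 to 36738202 per library. T cell markers were abundant, with Cd4 at a mean of 850 CPM in E1KO and 1023 CPM in E1WT libraries. The summed CPM of the 12 monocyte and macrophage markers was 407 to 421 in E1KO and 280 to 300 in E1WT libraries, and that of the 10 dendritic cell markers 550 to 620 and 429 to 513. Most of the dendritic cell sum came from the class II genes H2-Aa, H2-Ab1 and Cd74, which B cells also express. Their means were 92.3, 138 and 331 CPM in E1KO and 71.1, 123 and 274 CPM in E1WT libraries. That sum is therefore not a level of dendritic cells alone. The marker levels are taken up below, beside genes of myeloid cells.

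Nlrp1a and Nlrp1b are neighbouring paralogs on the minus strand of chromosome 11 (GRCm38, the same assembly as mm10), Nlrp1a at chr11:71092236-71144704 and Nlrp1b at chr11:71153102-71230733. They differed most between the titles of the 10 genes, so the 250 bases before each annotated start are shown, from RefSeq on GRCm38.p6, read 5′ to 3′ on the minus strand. The Nlrp1a stretch is chr11:71144705-71144954 and the Nlrp1b stretch chr11:71230734-71230983. Capitals mark the runs of at least 20 bases that are the same in both.
Nlrp1a: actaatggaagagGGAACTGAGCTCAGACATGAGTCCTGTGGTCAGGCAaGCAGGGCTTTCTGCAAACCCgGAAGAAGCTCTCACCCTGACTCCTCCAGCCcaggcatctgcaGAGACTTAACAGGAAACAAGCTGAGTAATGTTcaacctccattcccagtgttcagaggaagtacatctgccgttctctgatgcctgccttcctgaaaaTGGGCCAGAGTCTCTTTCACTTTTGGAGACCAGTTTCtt
Nlrp1b: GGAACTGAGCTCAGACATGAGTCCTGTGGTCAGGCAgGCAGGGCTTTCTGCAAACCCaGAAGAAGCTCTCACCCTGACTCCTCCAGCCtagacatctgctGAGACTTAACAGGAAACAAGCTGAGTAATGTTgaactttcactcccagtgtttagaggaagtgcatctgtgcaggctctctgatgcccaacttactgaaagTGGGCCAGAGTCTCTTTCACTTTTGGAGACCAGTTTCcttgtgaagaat
Of 237 aligned bases, 217 were identical (91.6%). The 5 shared runs held 155 bases, and the longest had 37. The longest annotated transcripts of the genes were less alike, with 85.3% identity over 3646 aligned bases.

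How far reads can be told apart between the paralogs depends on stretches as long as a read, which was 75 bases. A single coding stretch of 102 bases was identical in both genes, in exon 9 of 14 of transcript Nlrp1a-202 (chr11:71106006-71106107) and in exon 9 of 15 of Nlrp1b-204 (chr11:71163983-71164084). It is shown in lower case, from GENCODE M21, since a read inside it cannot be given to 1 of the genes by its own bases. The libraries were read as paired ends, and the other end of a pair was not considered here.
Nlrp1a and Nlrp1b: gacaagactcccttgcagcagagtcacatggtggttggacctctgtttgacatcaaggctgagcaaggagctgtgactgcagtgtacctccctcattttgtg
All 75-base stretches that the genes shared with any other annotated gene came from it. They made up 0.650% of the stretches of Nlrp1a and 0.445% of those of Nlrp1b, so nearly all of either gene is distinct at the read length.

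Nlrp1a encodes a sensor whose activating mutation causes inflammatory disease in mice. Its counts were 41, 32, 39 and 22 in E1KO libraries 1 to 4, and 2, 2, 1 and 4 in E1WT libraries 1 to 4. In CPM these were 1.13, 0.971, 1.22 and 0.659 against 0.0722, 0.055, 0.0361 and 0.113. All E1KO libraries lay above all E1WT libraries, and the gene was close to absent from the latter. The ratio of summed counts, scaled for library size, was 14.1 (95% interval 7.19 to 31.4, counting error only). The log2 fold was 3.75 ± 0.45 (SE, n = 4 each). It ranked 4 of 13333 genes tested, counted down from the highest positive log2 fold, with lower genes placed last. Nlrp1a passed the filter on low counts through its E1KO libraries alone, with 0 of 4 E1WT libraries at the filter level, so it had to differ among the genes tested.

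Nlrp1b encodes the sensor that anthrax lethal toxin activates in susceptible mouse strains, and C57BL/6 mice carry an allele that the toxin does not activate. Its counts were 178, 129, 148 and 163 in E1KO libraries and 34, 14, 4 and 22 in E1WT libraries. The E1KO libraries were close together at 4.89, 3.92, 4.65 and 4.88 CPM, while the E1WT libraries spread from 0.144 CPM (E1WT 3) to 1.23 CPM (E1WT 1), with 0.385 and 0.623 CPM between. The groups did not overlap. The log2 fold was 2.95 ± 0.40 (SE), rank 9 of 13333 in the same order from the highest. It was 3.52 without E1WT 1 and 2.65 without E1WT 3. In bulk RNA, a gene expressed in more cells and a gene expressed more strongly per cell cannot be told apart, and this holds for all genes below.

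Within the pair, Nlrp1b supplied most counts in every library, with 6.30 kb of annotated exon against 4.17 kb for Nlrp1a. Nlrp1a made up 18.7%, 19.9%, 20.9% and 11.9% of their summed counts in E1KO libraries. The E1WT libraries gave 5.56%, 12.5%, 20% and 15.4%, from only 5 to 36 counts each. The libraries of the titles overlapped. Pooled over libraries, the shares were 17.8% (95% Clopper-Pearson interval 15.1 to 20.7) and 10.8% (5.08 to 19.6). These intervals cover counting error only, since reads without molecular identifiers are not independent molecules and the spread between libraries is left out. The pseudogene Nlrp1c-ps, the next gene of the cluster, had 4, 0, 0 and 1 counts in E1KO and 0 counts in each E1WT library.

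**Figure D1:**
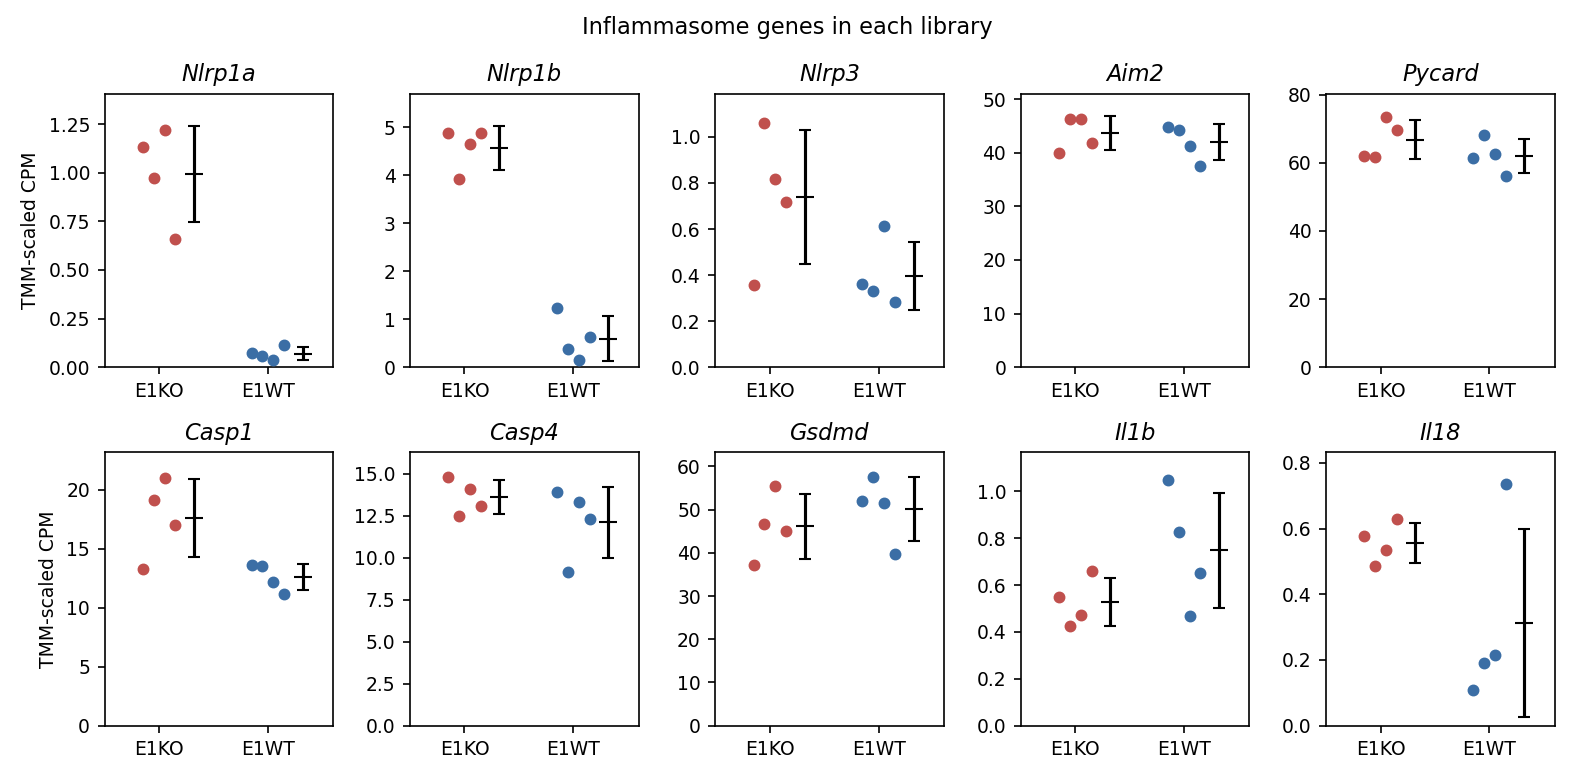
CPM of the 10 inflammasome genes in each library (points, replicates 1 to 4 from left to right), with mean and SD of 4 libraries beside them; each panel has its own vertical axis from 0. Nlrp1a and Nlrp1b separate the titles, and the other 8 genes overlap between them.

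Nlrp3, on the same chromosome at chr11:59541568-59566956, encodes the sensor that responds to potassium loss and crystals. It was at 0.357, 1.06, 0.816 and 0.718 CPM in E1KO and 0.361, 0.33, 0.613 and 0.283 CPM in E1WT libraries. E1KO 1 lay among the E1WT libraries and the other E1KO libraries above them, with a log2 fold of 0.90 ± 0.42 that was not past the threshold. Aim2, the sensor of cytosolic DNA at chr1:173350879-173466040, was at 40.0 to 46.3 CPM in E1KO and 37.5 to 44.8 CPM in E1WT libraries, with a log2 fold of 0.05 ± 0.08. The sign of the Aim2 value turned to -0.02 when an exon-length trend of the libraries was removed.

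The adaptor gene Pycard (chr7:127989708-127993867) was at 61.7 to 73.5 CPM in E1KO and 56.0 to 68.1 CPM in E1WT libraries, a log2 fold of 0.10 ± 0.08. A gene model on the opposite strand covers 12.8% of its exon bases, and without a stated strand setting reads from there cannot be told apart.

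Casp1, the protease that matures IL-1β and IL-18, lies at chr9:5298517-5307265. It was at 13.3, 19.1, 21.0 and 17.0 CPM in E1KO and 13.6, 13.5, 12.2 and 11.2 CPM in E1WT libraries. E1KO libraries 2, 3 and 4 were above every E1WT library, and E1KO 1 was within their range. The log2 fold of 0.48 ± 0.13 was past the threshold with all 8 libraries. It was no longer past it when E1KO 2, E1KO 3, E1KO 4, E1WT 3 or E1WT 4 was left out, with log2 folds of 0.44, 0.38, 0.50, 0.46 and 0.43.

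Casp4, next to Casp1 at chr9:5308828-5336783, encodes the caspase that binds lipopolysaccharide in the non-canonical pathway. It was at 12.5 to 14.8 CPM in E1KO and 9.13 to 13.9 CPM in E1WT libraries, a log2 fold of 0.17 ± 0.13. Gsdmd, the pore-forming substrate of both caspases (chr15:75862327-75867408), was at 37.2 to 55.4 and 39.8 to 57.5 CPM, a log2 fold of -0.12 ± 0.13. The libraries overlapped for both genes, and the values within a title spread more widely than the means lay apart.

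The cytokine genes were near the lower limit of what these libraries count. Il1b (chr2:129364570-129371139) had 14 to 22 counts in E1KO and 13 to 30 counts in E1WT libraries, which is 0.425 to 0.659 and 0.469 to 1.05 CPM and a log2 fold of -0.50 ± 0.35. An antisense gene, Il1bos, shares 1.31% of its exon bases. Il18 (chr9:50554827-50581840) was at 0.577, 0.486, 0.534 and 0.629 CPM in E1KO and 0.108, 0.192, 0.216 and 0.736 CPM in E1WT libraries. The E1WT 4 library, the highest of all 8, made the groups overlap. The log2 fold of Il18 was 0.79 ± 0.52 with it and not past the threshold, and 1.66 and past it without E1WT 4. For Il18, E1WT 4 was the only E1WT library at the level of the filter on low counts. Without it, Il18 passed the filter through E1KO libraries alone and had to differ among the genes tested.

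Of the 10 genes, 3 were past an adjusted p of 0.05 (edgeR quasi-likelihood test), all higher in E1KO libraries: Nlrp1a, Nlrp1b and Casp1. Over all 13333 genes tested, 23.3% were past it, 12.2% higher and 11.1% lower. The libraries of the titles did not overlap for 2 of the 10 genes, both higher in E1KO, against 26.0% of all genes in either direction. The median log2 fold was 0.32 for the 10 genes and 0.007 for all genes tested. Since the 10 genes were chosen with this comparison known, nothing is read from these counts.

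Ordered by CPM per kb of annotated exon, the genes spanned a wide range of levels. In E1WT libraries the order was Gsdmd (21.1 ± 3.13, SD, n = 4), Pycard (16.3 ± 1.31), Aim2 (12.0 ± 0.964), Casp1 (8.43 ± 0.746) and Casp4 (3.27 ± 0.572). Far below came Il1b (0.392 ± 0.129), Il18 (0.304 ± 0.277), Nlrp3 (0.0978 ± 0.0364), Nlrp1b (0.0943 ± 0.0737) and Nlrp1a (0.0166 ± 0.00790). The adaptor, effector and DNA sensor transcripts were thus at levels far above those of the NLR sensors and cytokines. Neighbours in this order overlapped over libraries for Gsdmd and Pycard and along the whole run from Il1b to Nlrp1a.

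In E1KO libraries the first 5 places were the same, and Nlrp1b moved from ninth place to the sixth, at 0.727 ± 0.0729 CPM per kb. Il18 (0.540 ± 0.0592), Il1b (0.276 ± 0.0536), Nlrp1a (0.239 ± 0.0594) and Nlrp3 (0.182 ± 0.0721) followed. Nlrp1b and Il18 did not overlap over libraries, while Gsdmd overlapped Pycard, Aim2 overlapped Casp1, Il1b overlapped Nlrp1a and Nlrp1a overlapped Nlrp3. Even in E1KO libraries, Nlrp1b stayed below Casp4 (3.67 ± 0.268) without overlap. With the longest transcript as the length, the E1KO order did not change and Nlrp1b and Nlrp3 changed places in the E1WT order.

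**Figure D2:**
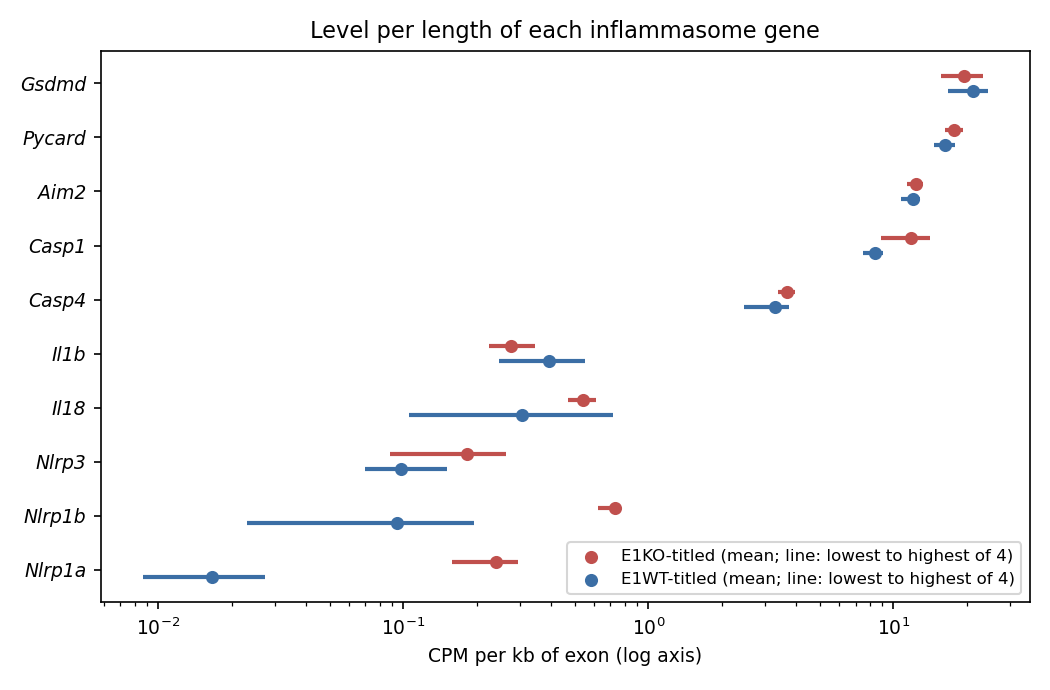
Level of each gene in CPM per kb of exon on a log axis, with the mean (points) and the lowest to highest of 4 libraries (lines) for each title, ordered by the E1WT mean. The NLR sensors and cytokine genes lie below 1 CPM per kb in both titles, and the lines of Nlrp1a and Nlrp1b do not overlap between titles.

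The genes whose levels followed those of Nlrp1b most closely were looked for among all genes tested, members and predicted models left out. By Pearson correlation of log2 CPM over the 8 libraries they were Clec4a1 (0.985), Atp7b (0.983), Repin1 (0.982), Elfn2 (0.981) and Slc38a5 (0.980). Clec4a1 encodes a C-type lectin of myeloid cells, Atp7b a copper transporter and Slc38a5 an amino acid transporter. The libraries share their title, so part of each value is the difference between titles. The correlations of the deviations from the title means were 0.91, 0.96, 0.91, 0.89 and 0.92, and that of Nlrp1a was 0.46 (0.934 over all libraries). The 5 genes were picked as the highest of all genes tested over these same 8 libraries, so high deviation correlations follow from the choice, and the Nlrp1b value of E1WT 3 rests on 4 counts. Nothing is read from the difference to Nlrp1a.

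The genes beside the Nlrp1 locus were looked at in the same way. Within 1 Mb of the interval from Nlrp1a to Nlrp1b, 4 of 40 other genes tested were past the threshold (10%), 2 higher and 2 lower, against 266 of 1090 on the rest of chromosome 11 (24.4%). The difference between these shares was not tested. The higher genes were 6330403K07Rik (log2 fold 1.05 ± 0.22, edgeR adjusted p = 0.0053), 58.7 kb from the interval, and C1qbp (0.29 ± 0.06, adjusted p = 0.0055), which encodes a mitochondrial matrix protein. The lower genes were Mink1, a kinase gene (-0.18 ± 0.05, adjusted p = 0.02), and Camta2, a transcriptional regulator gene (-0.17 ± 0.05, adjusted p = 0.022). The largest difference in the window in either direction was that of 6330403K07Rik, below those of Nlrp1a and Nlrp1b. Outside the window, Alox8 had a larger log2 fold than both (5.63, past the threshold). It lies at -1.89 Mb, negative towards the start of the chromosome, and was named after its values were seen. The count was 2 without E1KO 4 or without E1WT 1, when Mink1 and Camta2 were not past the threshold. It was 6 without E1KO 3 and 7 with the exon-length trend of the libraries removed.

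**Figure D3:**
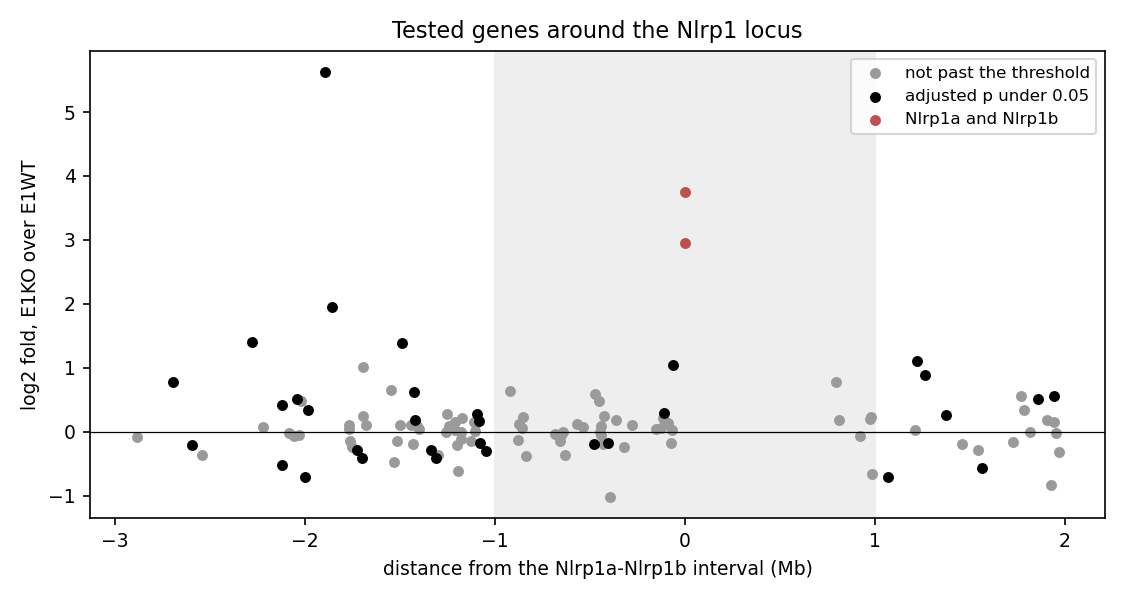
Log2 fold (E1KO over E1WT) of tested genes against distance from the interval that holds Nlrp1a and Nlrp1b, in Mb, with negative distances towards the start of the chromosome; the grey band marks 1 Mb on either side. The band holds 4 black points (adjusted p under 0.05), all with smaller log2 folds than the red points of Nlrp1a (3.75) and Nlrp1b (2.95). Outside the band, the black point of Alox8 (5.63) lies above both.

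The other genes of the pathway were followed through 6 lists, of which 104 genes were present and 82 tested. In them 27 were past the threshold (32.9%, against 23.3% of all genes tested), 15 higher and 12 lower, and the median log2 fold was 0.00, against 0.007 for all genes. With the exon-length trend of the libraries removed, 34 were past it, 15 higher and 19 lower. The lists were chosen with earlier results of these libraries known, and nothing particular to the pathway is read from these counts.

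Among other sensors and NLR genes, 3 of 11 tested rose, 2 fell and 6 were not past the threshold, with a median log2 fold of 0.28. The NAIP proteins bind flagellin or parts of bacterial secretion systems and pass the signal to NLRC4. Naip5 was at 14.4 ± 0.88 CPM in E1KO and 6.87 ± 0.707 CPM in E1WT libraries (SD, n = 4 each), a log2 fold of 1.06 ± 0.10 (edgeR adjusted p = 4.5e-05). Naip2 was at 27.6 ± 2.55 and 16.5 ± 3.36 CPM, a log2 fold of 0.74 ± 0.14 (adjusted p = 0.0026). Both rose without overlap between the titles. The Naip genes are near-identical copies in part, since 23.8% of the 75-base stretches of Naip5 and 10.7% of those of Naip2 occur in other annotated genes, so how their reads divide between copies is uncertain. Nlrc5, an activator of class I antigen presentation genes, fell from 426 ± 22.2 CPM in E1WT to 343 ± 17.3 CPM in E1KO libraries (log2 fold -0.31 ± 0.06, adjusted p = 0.0028). Nlrc4, which the NAIP proteins activate, was at 3.98 and 4.02 CPM (log2 fold -0.02 ± 0.21). It was named after its values were seen. Nlrp2, Nlrp4a and Nlrp9b had 0 counts in all 8 libraries.

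The list of AIM2-like and other sensors of cytosolic nucleic acids had 3 genes higher and 2 lower of 15 tested, and a median of 0.00. Ddx58, which encodes the RNA sensor RIG-I, fell (log2 fold -0.29 ± 0.06, edgeR adjusted p = 0.0044). Ifi204, an AIM2-like gene, fell from 7.81 ± 0.721 to 5.62 ± 0.373 CPM (-0.48 ± 0.12, adjusted p = 0.012). Pydc3, an AIM2-like gene also called Ifi208, rose (0.21 ± 0.05, adjusted p = 0.017) and was not past the threshold without E1KO 2, E1KO 4 or E1WT 3 (adjusted p = 0.0514, 0.055 and 0.0506). Of the stretches of Ifi204 13.2% and of Pydc3 11.8% occur in other genes of this family or elsewhere. The other genes of the list past the threshold were named after their values were seen. AI607873, also called Ifi207, had the largest log2 fold of the list (1.52 ± 0.41, adjusted p = 0.021), at 1.95 CPM in E1KO and 0.666 CPM in E1WT libraries, and Pyhin1, which shares 23.1% of its stretches with Ifi214, rose by less (0.17 ± 0.05, adjusted p = 0.019). Of the AIM2-like genes past the threshold, Ifi204 was thus the lower one and the other 3 were higher.

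Regulators of NLRP1 and NLRP3 gave 1 gene higher and 3 lower of 19 tested, with a median of -0.04. Ubr4, a ubiquitin ligase gene of the N-degron pathway, was at 526, 438, 375 and 406 CPM in E1KO and 754, 610, 772 and 925 CPM in E1WT libraries. It fell without overlap between titles (log2 fold -0.81 ± 0.13, edgeR adjusted p = 0.00088). Panx1, a membrane channel gene, rose (0.23 ± 0.05, adjusted p = 0.0092), and Irgm1, an interferon-induced GTPase gene, fell (-0.22 ± 0.05, adjusted p = 0.01). The genes that act most directly on the NLRP1 sensors were named after their values were seen. Dpp8 was at 137 and 143 CPM (log2 fold -0.06 ± 0.07, adjusted p = 0.58) and Dpp9 at 85.1 and 80.7 CPM (0.08 ± 0.05, adjusted p = 0.32), neither past the threshold. Ubr2, whose ligase takes part in the degradation of the NLRP1B N terminus, fell from 262 to 223 CPM (-0.24 ± 0.08, adjusted p = 0.0452).

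In the list of other caspases, gasdermins and genes of lytic death, 4 of 11 tested rose and 0 fell, with a median log2 fold of 0.30. Over all genes tested 12.2% were higher and 11.1% lower, and the list was not tested against them. Ripk3, the kinase of necroptosis, rose from 34.3 ± 1.72 to 43.1 ± 4.06 CPM (0.33 ± 0.08, edgeR adjusted p = 0.011). Ninj1, which ruptures the membrane of dying cells after gasdermin pores have formed, rose from 8.17 ± 1.31 to 11.7 ± 1.25 CPM (0.51 ± 0.13, adjusted p = 0.016). The Ninj1 call was lost without E1KO 4 or E1WT 1 (adjusted p = 0.057 and 0.0502). Ripk3 belongs to necroptosis, a form of lytic death that does not need gasdermin D. Gsdma2, Gsdma3 and Gsdmc3 had 0 counts in all libraries.

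IL-1 family ligands, receptors and decoys gave 1 gene higher and 3 lower of 12 tested, with a median of -0.26. Il1rl1, the receptor of IL-33, was at 14.9, 16.7, 12.9 and 12.3 CPM in E1KO and 5.81, 6.08, 5.59 and 7.36 CPM in E1WT libraries, and rose (log2 fold 1.19 ± 0.13, edgeR adjusted p = 9.1e-05). Il1rl2, the IL-36 receptor gene, fell (-0.39 ± 0.10, adjusted p = 0.015). Il18r1, the ligand-binding chain of the IL-18 receptor, was at 84.9 ± 3.26 and 97.8 ± 4.6 CPM and fell (-0.20 ± 0.05, adjusted p = 0.019). Both calls were lost with single libraries left out, that of Il1rl2 without E1WT 3 (adjusted p = 0.0517) and that of Il18r1 without E1KO 4 or E1WT 1 (adjusted p = 0.0544 and 0.066).

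Of the MYD88 signalling genes below these receptors, 3 of 14 rose and 2 fell, with a median of -0.05. Peli2, a ubiquitin ligase gene of the pathway, rose from 1.82 ± 0.145 to 5.06 ± 0.88 CPM (log2 fold 1.47 ± 0.18, edgeR adjusted p = 0.00016). A single other gene model shares 8.78% of its 75-base stretches. The kinase genes Irak4 (0.35 ± 0.06, adjusted p = 0.0021) and Irak2 (0.32 ± 0.06, adjusted p = 0.0048) rose as well.

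**Figure D4:**
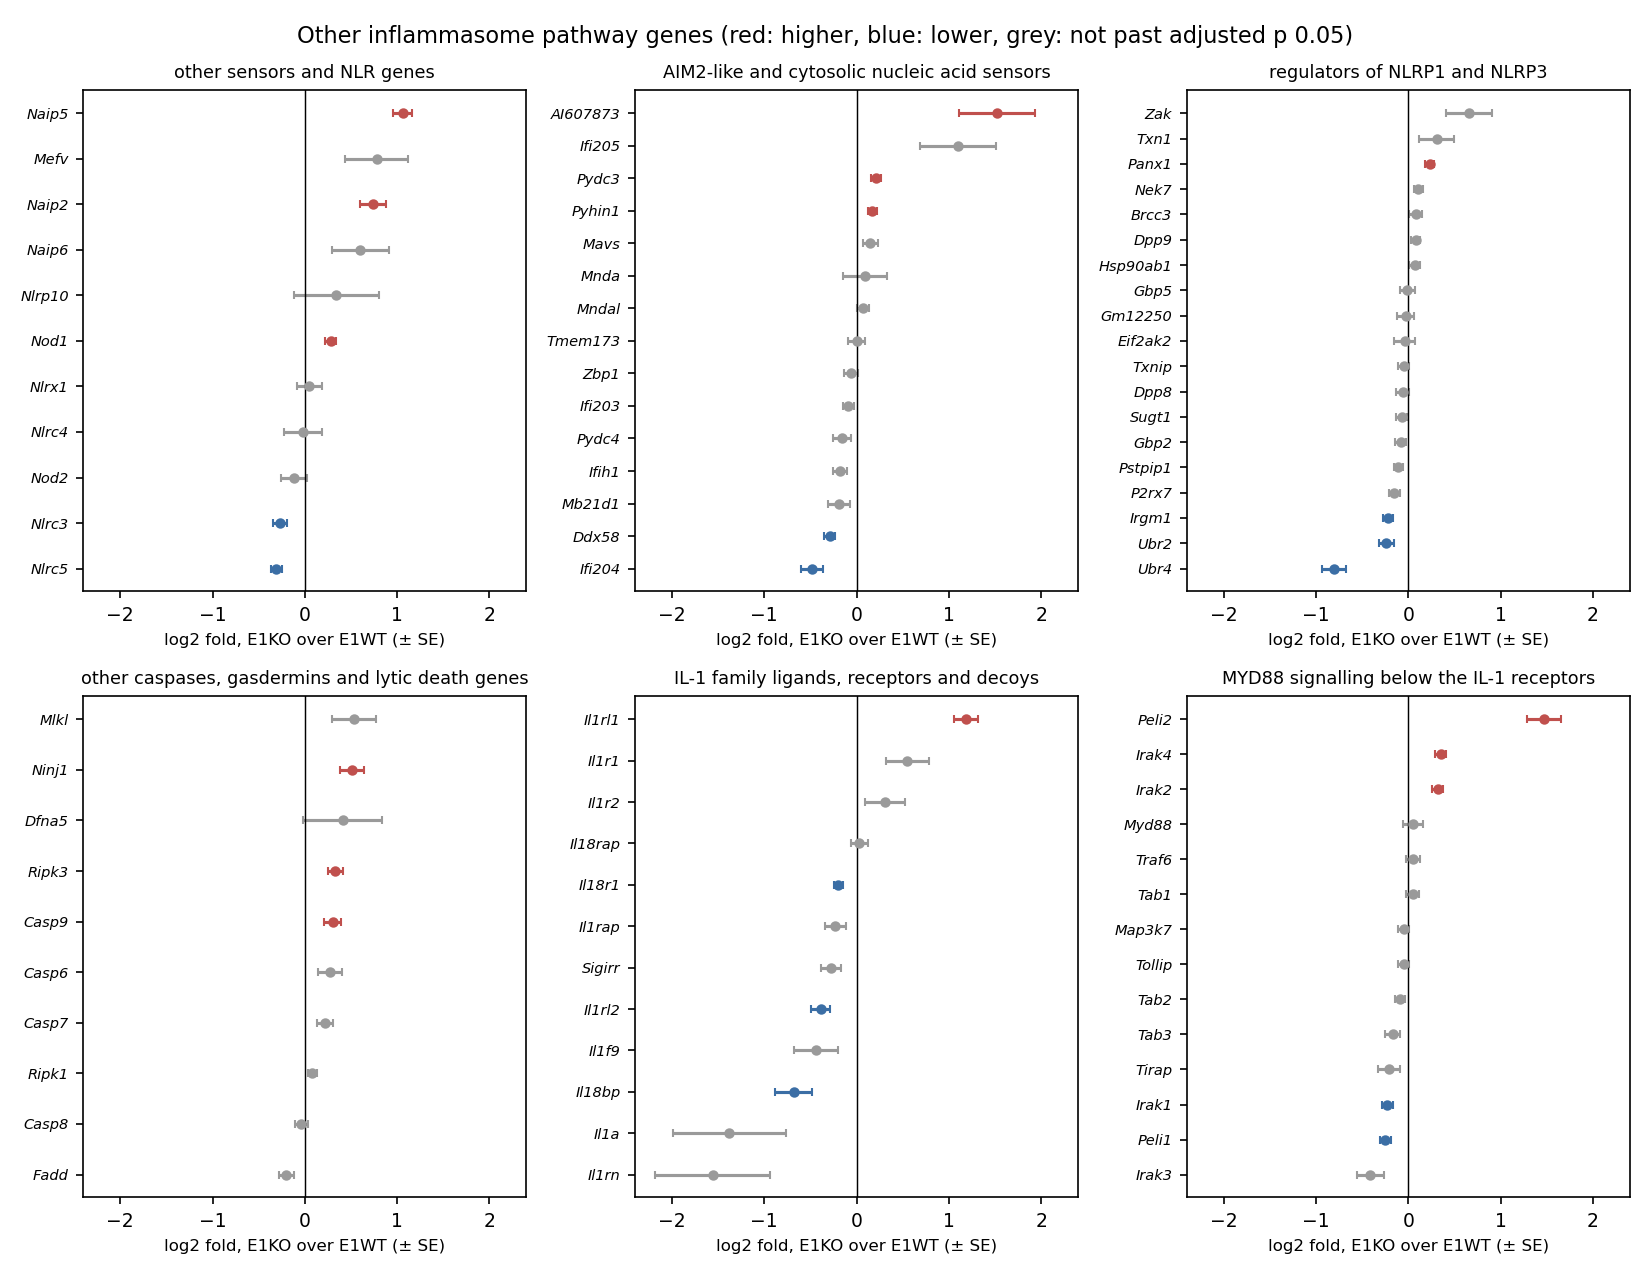
Log2 folds (E1KO over E1WT, with SE) of 81 of the 82 tested genes of the 6 pathway lists; red points were higher and blue points lower past an adjusted p of 0.05, and grey points were not past it. Each list but that of caspases and lytic death genes holds genes past the threshold in both directions, with Naip5, Il1rl1 and Peli2 among the highest.

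Several of these genes, among them Nlrp1a, Nlrp1b, Casp1, Naip2, Naip5 and Clec4a1, are known from myeloid cells and were higher in E1KO libraries. Clec4a1 was picked for following Nlrp1b over these libraries, so its direction came with the choice. Only 0 of 4 E1WT libraries for Nlrp1a and 1 of 4 for Clec4a1 were at the filter level, so both were tested through their E1KO libraries. Il1b, also known from myeloid cells, was not higher (log2 fold -0.50 ± 0.35). Nor were Il1a (-1.38 ± 0.61), Il1rn (-1.56 ± 0.62) and Nlrc4 (-0.02 ± 0.21), named after their values were seen and not past the threshold. Il1a had only 3 to 24 counts per library. Il1rn had 96 counts in E1WT 3, against 19, 14 and 35 in E1WT 1, 2 and 4 and 11 to 23 in E1KO libraries. Nlrp3 (0.90 ± 0.42), Il18 (0.79 ± 0.52) and Mefv (0.78 ± 0.34, named in the same way) had positive log2 folds, also not past the threshold. Markers of monocytes, macrophages and dendritic cells were mostly higher in E1KO libraries, while those of neutrophils were not. Of the 12 monocyte and macrophage markers tested, 8 were higher in E1KO libraries, 0 lower and 4 not past the threshold, with a median log2 fold of 0.71. Over all genes tested, 12.2% were higher and 11.1% lower, and the marker lists were not tested against these shares. Lyz2 was at 57.8 and 22.2 CPM (1.38 ± 0.11), Mpeg1 at 55.6 and 24.5 CPM (1.19 ± 0.11) and Fcer1g at 8.90 and 2.88 CPM (1.62 ± 0.19). Cd14 was near 0 in both titles, at 0.287 and 0.251 CPM, and no marker of this list was at 0 counts. Of the 10 dendritic cell markers, 7 were higher, 0 lower and 3 not past it, with a median of 0.82. Flt3 was at 8.04 and 3.50 CPM and Xcr1 at 1.88 and 0.582 CPM. Among E1WT libraries the monocyte and macrophage sums, mostly from Ctss and Cybb, were 290, 300, 300 and 280 CPM. Nlrp1b, with 34, 14, 4 and 22 counts there, ran from 0.144 to 1.23 CPM. Nothing is read from setting these values side by side. The part of monocytes, macrophages and dendritic cells in the result was not tested.

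Markers of other cells were given the same description. The shares to set beside these counts are again 12.2% higher and 11.1% lower over all genes tested. The lists are short, and none was tested against them. Of 9 neutrophil markers 0 were higher and 2 lower (summed CPM 17.9 to 19.8 in E1KO and 19.4 to 22.4 in E1WT), of 7 NK cell markers 3 were higher and 0 lower (164 to 178 and 139 to 151), and of 9 B cell markers 2 were higher and 1 lower (236 to 248 and 225 to 252). Of 5 plasma cell markers 1 was higher and 0 lower (724 to 925 and 470 to 682), and most of that sum was Jchain (means of 803 and 555 CPM). Of 5 erythroid markers 3 were higher and 0 lower (104 to 135 and 39.0 to 51.7), while the globin genes Hba-a1, Hba-a2, Hbb-bs and Hbb-bt, like the NK cell gene Klra8, had 0 counts in all libraries. Most of the erythroid sum was Car1 (means of 103 and 35.2 CPM). Of the 11 T cell markers 2 were higher and 5 lower (6426 to 6651 and 7308 to 7447), and of 2 CD8 T cell markers 0 were higher and 1 lower (20.3 to 27.9 and 25.4 to 31.0). Their part in the results above was not tested either.

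**Figure D5:**
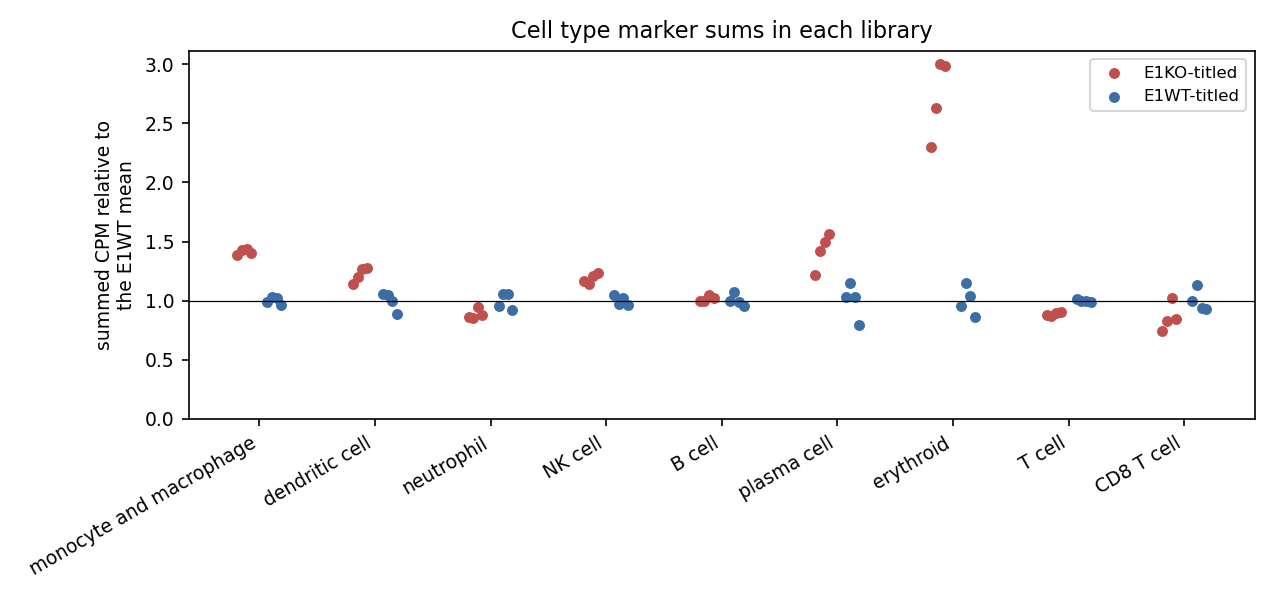
Summed CPM of each marker list in each library (points), divided by the mean of the 4 E1WT libraries. Monocyte and macrophage sums lie at 1.39 to 1.44 in E1KO and 0.959 to 1.03 in E1WT libraries, and T cell sums lie lower in E1KO than in E1WT libraries. Ctss and Cybb make up most of the monocyte and macrophage sum, Jchain most of the plasma cell sum and Car1 most of the erythroid sum.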

How the data were processed

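The 8 libraries were made from 50 ng of total RNA and read as 75-base paired ends, per the labels. The authors deposited raw read counts as whole numbers for each symbol. The submitters' processing notes name TopHat2 2.1.0, HTSeq 0.9.1 and mm10. The annotation is not given in the sources used here, nor is the strand setting. The 5 closing rows that name no gene held 28.2% to 37.0% of a file's counts and were left out.

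The test was that of edgeR 4.0.16 under R 4.3.3 (TMM, default filter with a count minimum of 10 and a total minimum of 15, quasi-likelihood test, Benjamini-Hochberg adjustment over 13333 genes, threshold 0.05), a procedure tested on simulated data. CPM used TMM-scaled gene totals. The filter level was 0.308 CPM in 4 libraries. Log2 CPM used a prior count of 2. Libraries were grouped by title. Whether each library is a different animal is not stated, and p-values cover only the spread from library to library, which may be technical. Every pair of libraries with the same title differed by more than sampling noise.

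The 10 genes and all lists were chosen with earlier results of these data known. Named genes are the 10, up to 3 called genes of each list and 5 called neighbours by smallest p, and the 5 genes most like Nlrp1b. Names outside this rule are marked as such in the text, and marker genes serve as examples of their lists. The values of 1 named list gene are not reported here. Positions and exon lengths come from GENCODE M21. Of the symbols, 23334 matched by name, 649 through an older symbol and 438 did not. The alternatives were other scalings and filters, DESeq2 1.42.0, limma-voom (limma 3.58.1), a replicate block, each library left out, 2 libraries left out and removal of an exon-length trend.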

Additional observations from a re-analysis of the deposited data

Results flagged for a closer look

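Within the 4 E1KO libraries, Naip2 in E1KO 3 stood apart at 23.8 CPM, below the other E1KO libraries at 28.5 to 29.4 CPM. The gap was 0.850 of the group's range which is past the critical value of Dixon's test for 4 samples. This was the single such case in 56 groups of libraries tested, and chance alone flags about 1 in every 20 groups. E1KO 3 still lay above all E1WT libraries for Naip2, which reached 19.7 CPM.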

How the results depend on the processing

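Nlrp1a and Nlrp1b kept their direction and stayed past the threshold in every alternative that tested them, with log2 folds of 3.57 to 4.10 and 2.65 to 3.52, and Nlrp1a was not tested under a filter of 1 CPM in 4 libraries. The number of the 10 genes past the threshold was 2 to 3 with each library left out. Aim2 changed sign with the exon-length trend removed (-0.02). Called neighbours of the Nlrp1 locus numbered 2 to 6 with each library left out and 7 with the trend removed; the cause was not tested. Calls over all genes ranged from 2204 to 3213 and pathway calls from 20 to 28 with each library left out. With the trend removed they were 3833 (1668 higher, 2165 lower) and 34 (15 higher, 19 lower), so the balance turned to lower. With the main settings it was 1623 higher and 1485 lower over all genes. Over all genes it was 1558 higher and 1558 lower with DESeq2 size factors and 1836 higher and 1888 lower with the DESeq2 test. With E1KO 1 and E1WT 4 both left out it was 1557 higher and 1572 lower. Replicate numbers did not pair the libraries: same-numbered deviations correlated at 0.014, -0.048, -0.035 and -0.099. With the replicate block, 2156 genes, 2 of the 10 genes, 20 pathway genes and 2 neighbours were called, and Casp1, Pydc3, Il18r1, Mink1 and Camta2 were not. Ifi204 (adjusted p = 0.0501, edgeR) and Il18r1 (0.056) were not called with E1KO 1 and E1WT 4 both left out, when Il18 was (log2 fold 1.64). Without E1WT 4, Il18 passed the filter through E1KO libraries alone, so nothing is read from that call. Camta2 was also not called without E1KO 2, E1WT 3 or E1WT 4. Of 20 levels per kb, 10 moved by more than 1 SD with the longest transcript as the length and 0 with plain CPM. Low counts limit Nlrp1a, Nlrp3, Il1b and Il18.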
